A study of Homo sapiens with 24 samples.

Results

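The death receptor genes described here are FAS, TNFRSF10A, TNFRSF10B, TNFRSF10D and TNFRSF1A, the ligand TNFSF10, and the signalling genes CFLAR, TRADD, RIPK1 and FADD. They were chosen by name, as the rows of the count table whose Ensembl identifier maps to these symbols. The choice was made with earlier results of these data known. All 10 were found among the 14585 genes of the table. All 10 also passed the filter on low counts in both cell lines. RNA was sequenced from A549 cells, a human lung adenocarcinoma line, and from Huh7 cells, a human hepatocellular carcinoma line, each labelled as wild type. That label does not describe p53, which the study reports as wild type in A549 and mutant in Huh7 cells. In each line 1 group was left as control and the other groups received an extract of the medicinal plant Pulsatilla chinensis or Bupleurum chinense or of the fungus Polyporus umbellatus. Each group had 3 replicates, which makes 24 libraries. The methods describe extracts dissolved in DMSO, while the dose and time used for sequencing and what the control cells received are not given in the sources used here. Whether the replicates were separate cultures is not stated either, so the p-values measure the spread between these libraries, which may be technical.

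Death receptors are members of the TNF receptor superfamily that carry a death domain inside the cell. When a ligand of the TNF family binds, the receptor recruits adaptor proteins and an initiator caspase, and the cell can enter apoptosis. TNFRSF1A instead first assembles a complex that activates NF-kB, and decoy receptors bind the ligand TRAIL without passing the signal on. Several death receptor genes are textbook targets of the transcription factor p53.

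In A549 cells the receptors for the FAS ligand and for TRAIL rose with all 3 extracts, and CFLAR, which encodes the inhibitor that blocks the initiator caspase at the receptor, rose with them. TNFRSF10B, the TRAIL receptor DR5, reached 2.23-fold of control with P. chinensis, 2.06-fold with B. chinense and 2.07-fold with P. umbellatus. FAS reached 2.38-fold, 1.80-fold and 1.90-fold. In Huh7 cells none of these receptors rose with any extract in the edgeR test, and FADD, the adaptor shared by FAS and the TRAIL receptors, passed the test with no extract in either line.

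The libraries held between 6803704 and 24345541 counts, with a median of 10515192. Squared count differences between replicates of a group, as a median over genes, were 2.70 to 5.11 times those expected from counting noise. The exception was replicate 2 of the P. umbellatus group in Huh7 cells, whose pairs stood at 11.8 and 15.8 times. This library stands apart, so member calls that moved without it are given both ways, as are counts of the gene lists other than markers. Medians and other Huh7 values include it unless stated. Of 12 hepatocyte genes, ALB and AFP stood at 2892 to 4872 CPM and 1915 to 2656 CPM in Huh7 cells and at no more than 0.710 and 0.287 CPM in A549 cells. Of 12 lung epithelial line markers 10 were in the table, and KRT7 stood at 1498 to 1786 CPM in A549 cells and at no more than 0.131 CPM in Huh7 cells. Of the 8 tested in both lines, 5 were higher and 3 lower in control A549 than in control Huh7 cells. EPCAM went the other way, at 0.436 to 5.26 CPM in A549 and 6.78 to 11.4 CPM in Huh7 cells. NKX2-1 and SFTPC, which define lung alveolar cells, are not among the genes analysed here. Mitochondrially encoded genes took 2.94% to 4.38% of counts in A549 cells and 1.93% to 3.91% in Huh7 cells.

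Values are given below as CPM, the count relative to a library total of 1000000 after TMM scaling within a line, in the order of replicates 1 to 3. The marker levels above and the sums over hepatocyte genes below are CPM without TMM scaling. Control levels per kilobase were scaled by TMM over all 24 libraries. A gene is said to have risen or fallen where the two-sided quasi-likelihood test of edgeR gave a Benjamini-Hochberg adjusted p below 0.05 over all genes tested in the line, and errors of log2 fold changes are standard errors. In bulk RNA, a smaller or larger share of cells with a transcript and a change in RNA per cell cannot be told apart.

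FAS (ENSG00000026103, chr10:88953813-89029605, forward strand, GRCh38) encodes the receptor of the FAS ligand. The first 1000 bases of the first intron of its canonical transcript hold 3 matches to the p53 half-site, a motif of 10 bases searched on both strands. Their surroundings were chosen for display with the rise of FAS and of 25 of 25 p53 targets in A549 cells already known. A part of these matches in that rise was not tested. The capitals mark the match, and the sequences are from the forward strand of GRCh38, read 5′ to 3′.
FAS intron 1 at chr10:88991090-88991149: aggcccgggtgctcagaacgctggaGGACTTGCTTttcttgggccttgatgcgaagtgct
FAS intron 1 at chr10:88991284-88991343: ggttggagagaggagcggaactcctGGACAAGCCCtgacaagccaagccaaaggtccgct
FAS intron 1 at chr10:88991522-88991581: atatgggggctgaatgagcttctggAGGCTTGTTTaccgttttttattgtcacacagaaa
Of 14236 genes with a window of this length, 21.4% held at least 1 such match and 0.267%, or 38 genes, held 3 or more. The cut of 3 is the count of FAS itself, so this share describes the window and is not a test. CFLAR and TNFRSF1A each held 1 match.
CFLAR intron 1 at chr2:201117174-201117233, forward strand: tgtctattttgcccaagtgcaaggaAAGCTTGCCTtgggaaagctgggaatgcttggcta
TNFRSF1A intron 1 at chr12:6341011-6341070, reverse strand: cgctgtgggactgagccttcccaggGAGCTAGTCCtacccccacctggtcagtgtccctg
FADD, RIPK1, TNFSF10 and TRADD held none in this window, and the windows of TNFRSF10A, TNFRSF10B and TNFRSF10D were not searched here. An NF-kB motif was found in 19.5% of the windows, with 1 match each in FAS, CFLAR and TNFRSF1A and 2 in TRADD, and the AP-1 motif TGANTCA in 19.1%, with 2 matches in CFLAR and 1 in FADD. A match gives the letters only and does not show that a factor binds.

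In control A549 cells FAS stood at 22.6, 22.4 and 16.5 CPM. It stood at 39.9, 46.95 and 59.3 CPM with P. chinensis, at 39.1, 29.2 and 43.1 CPM with B. chinense and at 37.2, 42.5 and 37.2 CPM with P. umbellatus. All 9 treated libraries were above all control libraries. The log2 fold change was 1.25 ± 0.17 for P. chinensis, 0.85 ± 0.17 for B. chinense and 0.93 ± 0.17 for P. umbellatus, with adjusted p-values from edgeR of 5.22e-05, 0.00199 and 0.000901. In Huh7 cells FAS stood at 16.9, 17.3 and 15.8 CPM in control, 16.9, 13.8 and 17.7 CPM with P. chinensis, 15.5, 16.2 and 13.6 CPM with B. chinense and 12.6, 14.1 and 14.7 CPM with P. umbellatus. The groups overlapped except for P. umbellatus, whose libraries were all below control. The log2 fold changes in Huh7 cells were -0.048 ± 0.13 for P. chinensis, -0.14 ± 0.13 for B. chinense and -0.27 ± 0.13 for P. umbellatus, with adjusted p-values of 0.834, 0.756 and 0.124 by edgeR, and their 95% intervals were -0.32 to 0.23, -0.42 to 0.14 and -0.55 to 0.016.

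TNFRSF10B (ENSG00000120889, chr8:23020133-23069031, reverse strand) encodes DR5, a TRAIL receptor with a death domain. It stood at 203, 233 and 217 CPM in control A549 cells, against 489, 497 and 476 CPM with P. chinensis, 458, 479.8 and 410.1 CPM with B. chinense and 434, 463 and 460 CPM with P. umbellatus. The lowest treated library was 410.1 CPM and the highest control library 233 CPM. On the log2 scale this was 1.16 ± 0.061 for P. chinensis, 1.04 ± 0.061 for B. chinense and 1.05 ± 0.061 for P. umbellatus, with adjusted p-values from edgeR of 5.04e-09, 3.72e-08 and 3.33e-08. Its transcripts share 11.4% of their stretches of 31 bases with other genes, 8.69% with RHOBTB2, a neighbouring gene, so that kallisto could split some reads between them. RHOBTB2 itself changed by -0.55 ± 0.093 for P. chinensis, -0.28 ± 0.093 for B. chinense and -0.20 ± 0.091 for P. umbellatus on the log2 scale in A549 cells, where the last value did not pass the test. In Huh7 cells TNFRSF10B stood at 166, 157 and 153 CPM in control, 158, 158 and 166 CPM with P. chinensis, 162, 154 and 170.1 CPM with B. chinense and 146, 117 and 142 CPM with P. umbellatus. The P. umbellatus libraries were all below control, and replicate 2, the library that stands apart, was the lowest of them. TNFRSF10B fell by 0.23 on the log2 scale there (adjusted p = 0.0499, edgeR), and without that library the log2 fold change was -0.13 with an adjusted p of 0.0826. With the other extracts it was 0.021 ± 0.082 and 0.035 ± 0.082.

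TNFRSF10A (ENSG00000104689, chr8:23190452-23225102, reverse strand) encodes DR4, the other TRAIL receptor with a death domain. In A549 cells it stood at 62.1, 69.3 and 63.8 CPM in control, 97.6, 90.9 and 111 CPM with P. chinensis, 87.9, 90.2 and 79.8 CPM with B. chinense and 91.5, 82.8 and 91.4 CPM with P. umbellatus. No treated library overlapped the control libraries. The log2 fold change was 0.61 ± 0.081 for P. chinensis, 0.40 ± 0.082 for B. chinense and 0.44 ± 0.080 for P. umbellatus, with adjusted p-values from edgeR of 3.80e-05, 0.00197 and 0.000827. Its Huh7 levels ranged from 22.1 to 25.6 CPM in control, 20.1 to 21.6 CPM with P. chinensis, 15.3 to 20.3 CPM with B. chinense and 15.99 to 25.6 CPM with P. umbellatus. The P. chinensis and B. chinense libraries lay below control and the P. umbellatus libraries overlapped it. Its log2 fold changes in Huh7 cells of -0.16 ± 0.16 for P. chinensis, -0.33 ± 0.17 for B. chinense and -0.13 ± 0.17 for P. umbellatus did not pass the test.

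TNFRSF10D (ENSG00000173530, chr8:23135588-23164027, reverse strand) encodes a decoy TRAIL receptor with a truncated death domain. In A549 cells it stood at 56.2, 57.2 and 55.4 CPM in control, 91.3, 94.0 and 111 CPM with P. chinensis, 83.04, 78.5 and 79.8 CPM with B. chinense and 79.3, 84.3 and 76.9 CPM with P. umbellatus. Each treated library exceeded the control libraries, which lay close together. On the log2 scale it rose by 0.81 ± 0.075 for P. chinensis, 0.51 ± 0.076 for B. chinense and 0.51 ± 0.075 for P. umbellatus, with adjusted p-values from edgeR of 1.21e-06, 0.000163 and 0.000149. The decoy thus rose beside both TRAIL receptors that signal. In Huh7 cells it ranged from 86.7 to 89.1 CPM in control, 80.3 to 87.3 CPM with P. chinensis, 71.3 to 81.4 CPM with B. chinense and 82.1 to 87.6 CPM with P. umbellatus. The B. chinense libraries were all below control and the others overlapped it. The log2 fold change of -0.18 ± 0.071 with B. chinense had a 95% interval of -0.33 to -0.021 and an adjusted p of 0.324.

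TNFRSF1A (ENSG00000067182, chr12:6328757-6342114, reverse strand) encodes the main TNF receptor. In A549 cells it stood at 407, 409 and 424 CPM in control, 342, 363 and 329.5 CPM with P. chinensis, 391, 388 and 388 CPM with B. chinense and 377, 406 and 405 CPM with P. umbellatus. All treated libraries lay below control, and the P. chinensis libraries lay lowest of them. The log2 fold change was -0.26 ± 0.045 for P. chinensis, -0.087 ± 0.045 for B. chinense and -0.061 ± 0.045 for P. umbellatus, with adjusted p-values from edgeR of 0.000431, 0.176 and 0.353, so only P. chinensis passed. In Huh7 cells it stood at 128, 140.2 and 127 CPM in control, 119, 112 and 117 CPM with P. chinensis, 128, 119.6 and 118 CPM with B. chinense and 125, 78.4 and 124 CPM with P. umbellatus. The P. chinensis and P. umbellatus libraries were all below control, and replicate 2 of P. umbellatus was far below the rest. With P. chinensis the Huh7 log2 fold change was -0.19 ± 0.14 (adjusted p = 0.381, edgeR), and it was -0.19 with an adjusted p of 0.0145 when the P. umbellatus library that stands apart was left out of the model.

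TNFSF10 (ENSG00000121858, chr3:172505508-172523475, reverse strand), the gene of the ligand TRAIL, was near the limit of these libraries. It held 8, 5 and 13 counts in control A549 cells and 4 to 11 counts in the treated ones. In Huh7 cells it held 33, 24 and 35 counts in control, 33, 31 and 19 for P. chinensis, 3, 10 and 36 for B. chinense and 15, 11 and 22 for P. umbellatus. Its log2 fold changes lay between -0.24 and 0.27 in the comparisons with control, the 95% intervals reached from -1.42 to 1.44, and a change was not detectable at this depth.

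**Figure D1:**
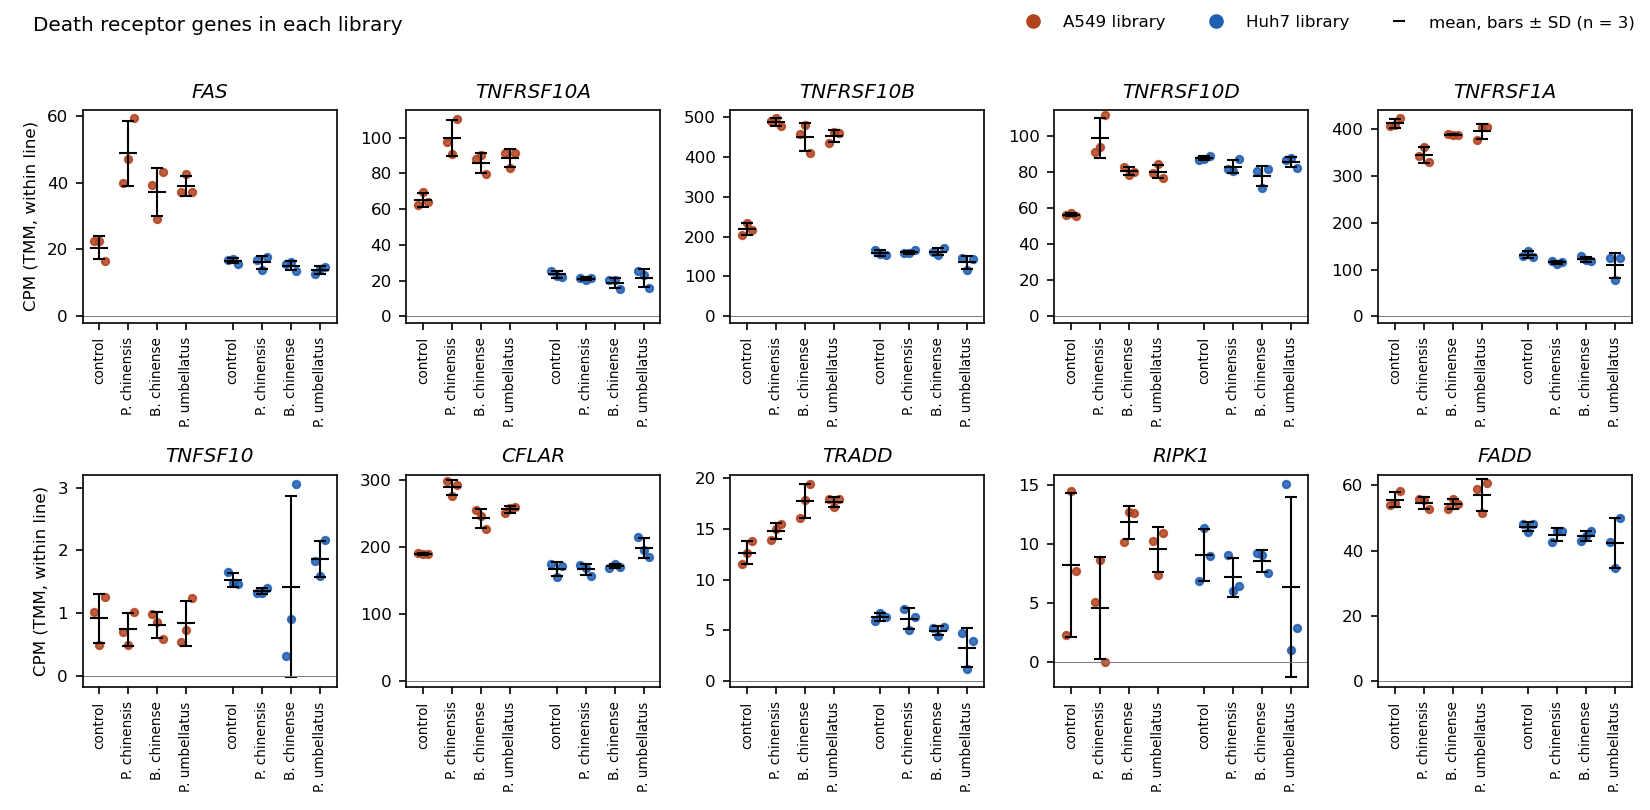
CPM after TMM scaling within a line (vertical axis) for the 10 genes in each of the 24 libraries, A549 in red and Huh7 in blue, with the mean and SD of the 3 libraries of a group in black. The treated A549 libraries lie above the control libraries for FAS, TNFRSF10A, TNFRSF10B, TNFRSF10D, CFLAR and TRADD, while RIPK1 scatters from 0 to 15.02 CPM.

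CFLAR (ENSG00000003402, chr2:201116154-201176687, forward strand) encodes c-FLIP, which competes with the initiator caspase at the receptor. In A549 cells it stood at 191, 189 and 189 CPM in control, 299, 276 and 293 CPM with P. chinensis, 256, 246 and 227 CPM with B. chinense and 250.5, 259 and 259 CPM with P. umbellatus. Treated and control libraries did not overlap. It rose on the log2 scale by 0.61 ± 0.049 for P. chinensis, 0.36 ± 0.049 for B. chinense and 0.43 ± 0.049 for P. umbellatus, with adjusted p-values from edgeR of 3.05e-07, 8.39e-05 and 1.34e-05. CFLAR in Huh7 cells stood at 174, 154 and 172 CPM in control, 174, 169 and 157 CPM with P. chinensis, 169, 175 and 170 CPM with B. chinense and 215, 196 and 184 CPM with P. umbellatus. The P. umbellatus libraries were all above control and the others overlapped it. CFLAR rose with P. umbellatus by 0.25 ± 0.075 on the log2 scale (adjusted p = 0.0232, edgeR), by 0.26 (adjusted p = 0.0183) without replicate 2, and did not pass in a fit of only the libraries compared (0.21, adjusted p = 0.154). The table holds 1 value for the gene, while the annotation used here lists 17 coding transcripts of 435 to 14612 bases, so the level does not show which c-FLIP form is made, and 11% of its stretches of 31 bases occur in other genes.

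TRADD (ENSG00000102871, chr16:67154185-67159909, reverse strand) encodes the adaptor of TNFRSF1A. In A549 cells it stood at 11.5, 12.6 and 13.8 CPM in control, 13.9, 14.98 and 15.5 CPM with P. chinensis, 16.1, 17.8 and 19.4 CPM with B. chinense and 17.9, 17.1 and 17.98 CPM with P. umbellatus. Every treated library was above every control library. The log2 fold change was 0.23 ± 0.12 for P. chinensis, 0.48 ± 0.12 for B. chinense and 0.48 ± 0.12 for P. umbellatus, with adjusted p-values from edgeR of 0.183, 0.0089 and 0.00864, so B. chinense and P. umbellatus passed. TRADD in Huh7 cells stood at 5.92, 6.66 and 6.34 CPM in control, 7.07, 5.01 and 6.29 CPM with P. chinensis, 5.21, 4.41 and 5.26 CPM with B. chinense and 4.76, 1.15 and 3.92 CPM with P. umbellatus. The B. chinense and P. umbellatus libraries were all below control. Replicate 2 of P. umbellatus held 8 counts of TRADD against 39 and 40 in the other libraries of its group. TRADD fell by 0.89 on the log2 scale with P. umbellatus (adjusted p = 0.0466, edgeR), and the value was -0.53 with an adjusted p of 0.0602 without replicate 2.

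RIPK1 (ENSG00000137275, chr6:3063824-3115187, forward strand) encodes the kinase that links TNFRSF1A to NF-kB and to cell death, and its estimates scattered widely. It held 18, 147 and 80 counts in control A549 cells and 43, 86 and 0 for P. chinensis, 92, 117 and 86 for B. chinense and 173, 80 and 88 for P. umbellatus. In Huh7 cells it held 136, 183 and 215 counts in control, 225, 140 and 87 for P. chinensis, 88, 100 and 88 for B. chinense and 123, 7 and 29 for P. umbellatus. Single libraries at 0 or 7 counts stood beside others of the same group at 86 or 123. The standard errors of its log2 fold changes against control were 0.56 to 0.74, and none passed the test.

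FADD (ENSG00000168040, chr11:70203296-70207390, forward strand) encodes the adaptor that joins FAS and the TRAIL receptors to the initiator caspase. In A549 cells it stood at 54.1, 54.5 and 58.3 CPM in control, 55.7, 55.4 and 52.6 CPM with P. chinensis, 52.7, 55.95 and 54.2 CPM with B. chinense and 58.9, 51.6 and 60.8 CPM with P. umbellatus. Treated and control libraries overlapped with each extract. The log2 fold changes of -0.028 ± 0.074 for P. chinensis, -0.036 ± 0.075 for B. chinense and 0.035 ± 0.074 for P. umbellatus had 95% intervals within -0.20 and 0.19. In Huh7 cells FADD ranged from 45.7 to 48.2 CPM in control, 42.5 to 46.1 CPM with P. chinensis, 43.04 to 45.97 CPM with B. chinense and 34.7 to 49.9 CPM with P. umbellatus, and the log2 fold changes were -0.078 ± 0.11 for P. chinensis, -0.086 ± 0.11 for B. chinense and -0.15 ± 0.11 for P. umbellatus. Without replicate 2 of P. umbellatus the last value was -0.031.

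Counted over the members, 5 rose and 1 fell of 10 with P. chinensis in A549 cells, where 32.8% of all 13633 genes changed, 15.8% rose and 17.1% fell. With B. chinense 6 rose and none fell, beside 28.1% of all genes changed, 13.1% that rose and 15.0% that fell. With P. umbellatus 6 rose and none fell, beside 28.2%, 13.4% and 14.8%. Because the members were chosen with earlier results of these data known, these counts describe the 10 genes and are not a test. The median log2 fold change of the 10 genes was 0.42, 0.44 and 0.44 with the 3 extracts in that order, and 0.014, -0.0018 and -0.012 over all genes. With upper quartile scaling the split of all changed genes in A549 cells moved from 2148 higher and 2325 lower to 2733 and 1785 with P. chinensis. For B. chinense it moved from 1789 and 2043 to 2202 and 1556, and for P. umbellatus from 1827 and 2015 to 2140 and 1658. The 18 member calls in A549 cells remained when each of the 12 libraries was left out in turn. The CPM of treated and control libraries did not overlap for 7 of 10 members with each extract, beside 45.1%, 40.4% and 41.6% of all genes. Hepatocyte genes, 12 on the list with AFP at no more than 3 counts in any A549 library, summed to 162 to 177 CPM in control and 81.4 to 104 CPM in treated A549 cells, and their part in these results was not tested.

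In Huh7 cells none of the 10 members changed with P. chinensis in the edgeR test, none also at an unadjusted p below 0.05, while 20.9% of 13875 genes changed, 10.5% upward and 10.5% downward. DESeq2 called none either, and limma voom called TNFRSF1A, at a log2 fold change of -0.18. Upper quartile scaling moved the split of all changed genes with P. chinensis from 1450 higher and 1451 lower to 1781 and 1136. With B. chinense none changed by edgeR, DESeq2 or limma voom, 1 had an unadjusted p below 0.05 (TNFRSF10D), and 1.28% of all genes changed, 0.519% upward and 0.757% downward. With P. umbellatus 1 rose (CFLAR) and 2 fell (TNFRSF10B, TRADD), beside 37.0% of all genes, 19.3% upward and 17.8% downward. The CPM of treated and control libraries did not overlap for 3, 3 and 5 of 10 members, beside 53.3%, 29.1% and 48.4% of all genes. Without replicate 2 of the P. umbellatus group in the model, 34.9%, 6.57% and 32.9% of all genes changed with the 3 extracts. The 3 member calls came down to CFLAR without replicate 2 of the P. umbellatus group and to none in a fit of only the 6 libraries compared. They also moved with the libraries that set the shared spread. None passed without replicate 1 or 2 of P. chinensis or replicate 2 of control, only CFLAR passed without replicate 3 of P. chinensis or replicate 1 or 3 of control, and only TNFRSF10B passed without any 1 of the B. chinense replicates. Without replicate 1 of P. umbellatus RIPK1 passed and CFLAR did not, and without its replicate 3 FADD passed in addition. The median log2 fold change of the members in Huh7 cells was -0.079, -0.10 and -0.19 with the 3 extracts, and 0.011, -0.0001 and 0.032 over all genes. The hepatocyte genes of Huh7 cells, whose sum was 22120 to 22550 CPM in control, summed to 14690 to 15630 CPM with P. chinensis, where 5 of 12 fell, among them APOB by 0.89, and 2 rose, FGB by 0.69 ± 0.079 and FGA by 0.32 ± 0.068. Mitochondrially encoded genes took 1.93% to 2.26% of counts in control and 2.41% to 3.91% with P. umbellatus. The part of either in these results was not tested.

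**Figure D2:**
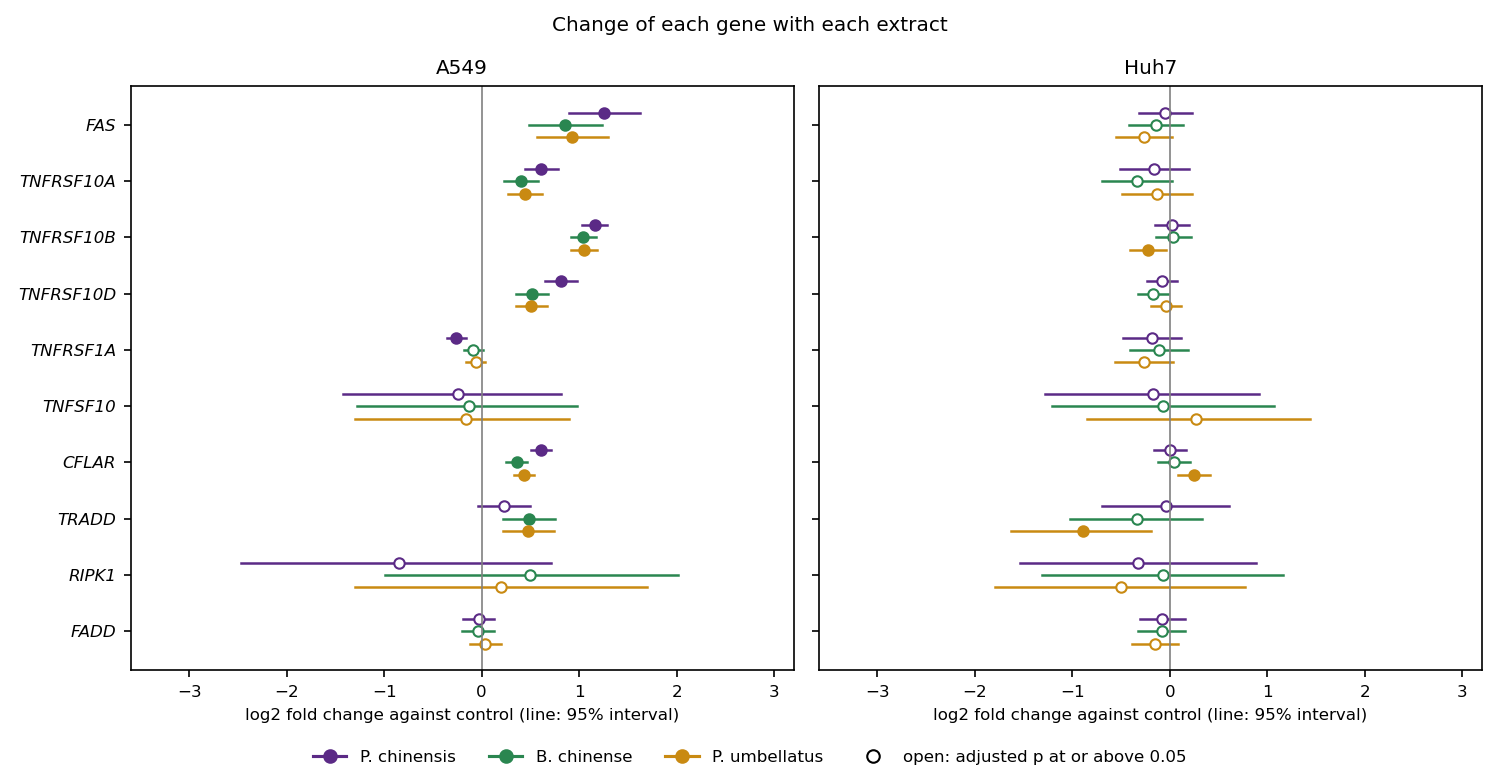
Log2 fold change of each gene against control of its line (horizontal axis), with its 95% interval, for A549 (left) and Huh7 (right). Filled points passed the edgeR test. In A549 cells these were 6 of 10 with each extract, beside 32.8%, 28.1% and 28.2% of all genes. All of these but TNFRSF1A with P. chinensis lay above 0. In Huh7 cells they were 0, 0 and 3 of 10, beside 20.9%, 1.28% and 37.0% of all genes. The comparisons of a line share its control libraries.

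The difference of a change between the 2 lines was examined by an interaction term fitted to all 24 libraries and 12924 genes. With P. chinensis the change of 5 of 10 members was higher in A549 than in Huh7 cells, beside 19.6% of genes with a difference, 10.3% with a higher and 9.30% with a lower one. With B. chinense it was 5 of 10, beside 11.6%, 5.80% and 5.80%, and with P. umbellatus 6 of 10, beside 34.4%, 19.1% and 15.3%. FAS, TNFRSF10A, TNFRSF10B, TNFRSF10D and CFLAR differed with every extract, and TRADD with P. umbellatus. For TNFRSF10B the difference in log2 fold change was 1.19 ± 0.10 for P. chinensis, 1.05 ± 0.10 for B. chinense and 1.36 ± 0.11 for P. umbellatus, and for FAS it was 1.35 ± 0.22 for P. chinensis, 1.03 ± 0.23 for B. chinense and 1.27 ± 0.23 for P. umbellatus. Without replicate 2 of P. umbellatus in Huh7 cells, the TRADD difference with P. umbellatus was 1.04 in place of 1.43 and still passed, and the CFLAR difference was 0.21 in place of 0.27 and did not (adjusted p = 0.0698, edgeR). The CFLAR difference with P. umbellatus was lost in 10 of 24 fits that left out 1 library, namely any 1 replicate of P. chinensis or B. chinense, replicate 1 or 3 of control, or replicate 2 or 3 of P. umbellatus, all in Huh7 cells. Without replicate 3 FADD passed, and without replicate 2 the TRADD difference with B. chinense passed. For TNFRSF1A the difference was -0.022 ± 0.15 for P. chinensis, 0.066 ± 0.15 for B. chinense and 0.29 ± 0.15 for P. umbellatus, and none passed.

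**Figure D3:**
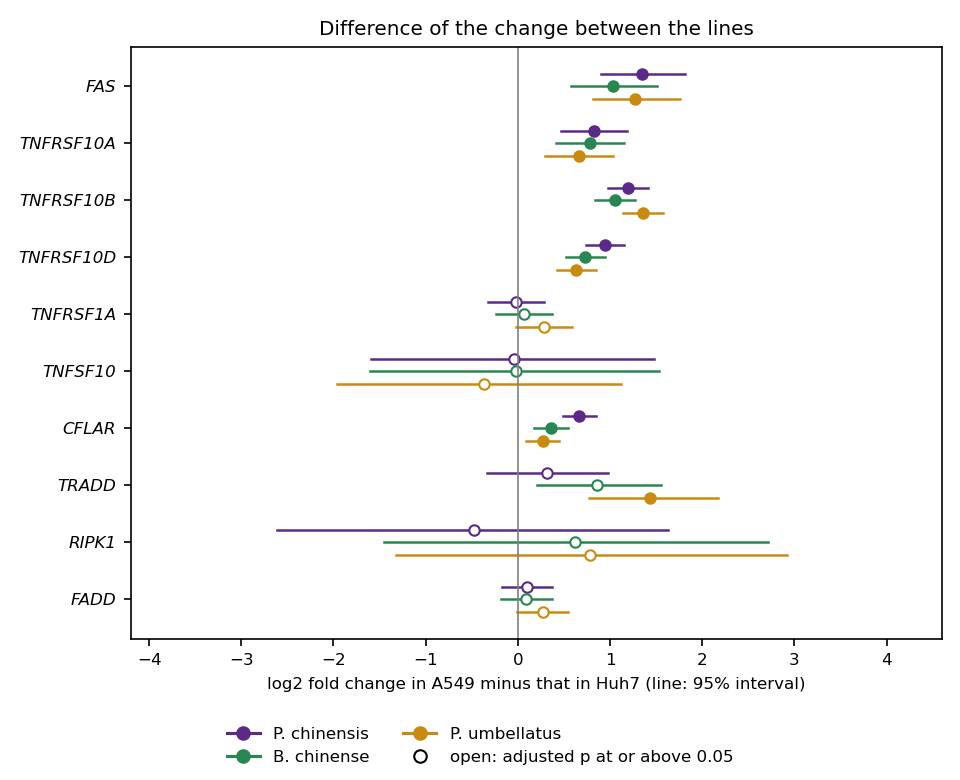
Difference in log2 fold change, A549 minus Huh7 (horizontal axis), with its 95% interval, for each gene and extract. Points for FAS and the TRAIL receptors lie between 0.63 and 1.36 and are filled, which marks an adjusted p below 0.05.

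The extracts were also compared with each other within a line, where doses were not matched by any value given here. In A549 cells 1 member differed between P. chinensis and B. chinense, beside 1.45% of genes, 0.447% higher: CFLAR was higher with P. chinensis by 0.25 ± 0.049 on the log2 scale (adjusted p = 0.0232, edgeR), a call lost without P. chinensis replicate 1 or 3 or B. chinense replicate 2 or 3, and the value lay between 0.21 and 0.29 over all libraries left out. Against P. umbellatus 2 members differed, beside 3.01% of genes, 0.814% higher and 2.19% lower, a split of 111 and 299 that was 147 and 218 with upper quartile scaling: TNFRSF10D was higher with P. chinensis by 0.30 ± 0.073 and TNFRSF1A was lower with P. chinensis, at -0.20 ± 0.045. Neither passed without P. chinensis replicate 3 or P. umbellatus replicate 2 or 3. TNFRSF1A was also lost without P. chinensis replicate 1, and TNFRSF10D without B. chinense replicate 1 or 2, control replicate 2 or P. umbellatus replicate 1, while CFLAR passed in addition without B. chinense replicate 3. The values ran from 0.21 to 0.36 for TNFRSF10D and from -0.23 to -0.17 for TNFRSF1A. Between B. chinense and P. umbellatus no member differed by edgeR, DESeq2 or limma voom, none at an unadjusted p below 0.05, and 0.0513% of genes did. The 95% interval of that difference was -0.13 to 0.12 for TNFRSF10B and -0.43 to 0.28 for FAS. For TNFRSF10B, P. chinensis differed from B. chinense by 0.12 ± 0.060 and from P. umbellatus by 0.11 ± 0.059, with 95% intervals of -0.013 to 0.24 and -0.019 to 0.24.

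In Huh7 cells no member differed between P. chinensis and B. chinense by edgeR, DESeq2 or limma voom, none at an unadjusted p below 0.05, beside 7.81% of genes. Between P. chinensis and P. umbellatus TNFRSF10B was higher with P. chinensis by 0.25 ± 0.083 and CFLAR was lower, at -0.25 ± 0.075, 2 of 10 members beside 35.4% of genes, 16.5% higher and 18.8% lower. Without replicate 2 of P. umbellatus these values were 0.16 and -0.26, and both passed. Neither passed without P. chinensis replicate 2 or 3, TNFRSF10B was lost without P. chinensis replicate 1 or control replicate 3, and without P. umbellatus replicate 1 CFLAR was lost while RIPK1 and TRADD passed. Between B. chinense and P. umbellatus TNFRSF10B was higher with B. chinense by 0.26 ± 0.084, 1 of 10 members beside 27.3% of genes, 12.6% higher, and by 0.17 without replicate 2, where it passed. That call was lost without P. chinensis replicate 3, B. chinense replicate 1 or 3, or control replicate 1 or 3. TNFSF10 passed without B. chinense replicate 3, RIPK1 without P. umbellatus replicate 1, and CFLAR and TNFRSF10A without P. umbellatus replicate 3.

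The lines also differed between their control groups. Of the 10 members 6 were higher and 1 lower in control A549 than in control Huh7 cells, beside 68.7% of 12924 genes that differed, 33.8% that were higher and 34.9% that were lower in A549. TNFRSF1A was higher by 1.65 ± 0.11 on the log2 scale, TNFRSF10A by 1.47 ± 0.12, TRADD by 0.99 ± 0.22, TNFRSF10B by 0.46 ± 0.074, FADD by 0.24 ± 0.092 and CFLAR by 0.19 ± 0.061. The decoy TNFRSF10D was lower in A549 cells, at -0.64 ± 0.071. FAS differed by 0.30 ± 0.16, with an adjusted p of 0.101 by edgeR. CFLAR and FADD did not pass without control replicate 2 of Huh7 cells, and without control replicate 3 of A549 cells FADD did not pass and FAS did. As a level per kilobase of the canonical transcript, TNFRSF1A stood at 194 ± 4.48 CPM per kb (SD, n = 3) in A549 controls, TNFRSF10B at 55.5 ± 3.75, TNFRSF10A at 24.6 ± 1.42 and TNFRSF10D at 16.2 ± 0.244. In Huh7 controls the order was TNFRSF1A at 61.7 ± 3.34 CPM per kb, TNFRSF10B at 40.3 ± 1.75, TNFRSF10D at 25.2 ± 0.337 and TNFRSF10A at 8.86 ± 0.717. The SDs of neighbours in either order did not overlap. FAS, with 19 coding transcripts of 975 to 16484 bases, is left out of this order because its length is uncertain. The lengths of ranked genes also vary, from 693 to 2690 bases for TNFRSF10A, 1723 to 3998 for TNFRSF10B and 581 to 2379 for TNFRSF1A. The order therefore holds for the canonical lengths only, and the SDs cover only the spread between replicates.

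On a list named other death receptors and ligands, 10 of 18 genes were in the table and 9 were tested in A549 cells. Of these, 6 rose with P. chinensis and 5 with each other extract, and none fell. The list also holds ligands and decoy receptors, so a rise on it is not always that of a receptor with a death domain. EDA2R, a receptor of the ectodysplasin A2 isoform, rose by 1.38 ± 0.085, 1.19 ± 0.086 and 1.12 ± 0.085 with the 3 extracts on the log2 scale, TNFSF9, the ligand of 4-1BB, by 1.13 ± 0.15 with P. chinensis and 0.84 ± 0.15 with P. umbellatus, and TNFRSF10C, another decoy TRAIL receptor, by 0.98 ± 0.19 with B. chinense. TNFRSF10C also rose with the other extracts. In this list and those that follow, values are given for up to 2 genes in each direction and extract, so a gene may also have passed with an extract for which no value is given. For each list count, the share of all genes in A549 cells was 15.8%, 13.1% and 13.4% higher and 17.1%, 15.0% and 14.8% lower with the 3 extracts. In Huh7 cells it was 10.5%, 0.519% and 19.3% higher and 10.5%, 0.757% and 17.8% lower. In Huh7 cells 8 were tested. TNFRSF21 rose with P. chinensis by 0.25 ± 0.061 and with P. umbellatus by 0.27 ± 0.061, TNFRSF12A, the TWEAK receptor, fell by 0.82 with P. umbellatus, and none changed with B. chinense. Medians of the list on the log2 scale were 0.61, 0.82 and 0.69 in A549 cells and 0.37, -0.013 and 0.14 in Huh7 cells, in the order of extracts above. FASLG and TNF, the genes of the ligands of FAS and TNFRSF1A, are not among the genes analysed here.

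Partners below the receptors include the initiator and executioner caspases. Of 16 caspase and adaptor genes tested in A549 cells, 3 rose and 1 fell with P. chinensis, 2 rose and 1 fell with B. chinense, and 1 rose and 1 fell with P. umbellatus. These counts are below the shares of all genes that changed there, 32.8%, 28.1% and 28.2%. PEA15, which binds FADD, rose by 0.62 ± 0.065, 0.45 ± 0.066 and 0.54 ± 0.065, and PIDD1, a death domain protein, by 0.66 ± 0.21 with P. chinensis and 0.74 ± 0.21 with B. chinense. In Huh7 cells 3 of 15 rose with P. chinensis, among them PEA15 by 0.39 ± 0.12. None changed with B. chinense, and with P. umbellatus 1 rose and 1 fell, DEDD2 by 1.55. The list medians were 0.0079, -0.0037 and -0.085 in A549 cells and 0.025, -0.017 and 0.065 in Huh7 cells. Of 4 necroptosis genes tested in A549 cells, PGAM5, a mitochondrial phosphatase, fell with each extract, by 0.29, 0.24 and 0.37, and of 3 tested in Huh7 cells none changed. Their medians were 0.14, -0.062 and 0.15 in A549 cells and 0.062, 0.089 and -0.26 in Huh7 cells.

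Of 24 genes of the TNF receptor complex and its ubiquitin enzymes, 10 rose and 2 fell in A549 cells with P. chinensis, 6 rose and 1 fell with B. chinense, and 7 rose and 1 fell with P. umbellatus. In Huh7 cells 7 rose and 2 fell with P. chinensis, 2 rose with B. chinense, and 5 rose and 3 fell with P. umbellatus. Of all genes 32.8%, 28.1% and 28.2% changed in A549 cells and 20.9%, 1.28% and 37.0% in Huh7 cells with the 3 extracts. BIRC3, a ubiquitin ligase of the complex, rose in Huh7 cells by 2.82 ± 0.20, 0.995 ± 0.22 and 1.75 ± 0.21 with the 3 extracts, and in A549 cells by 1.61 ± 0.077 with P. chinensis and 1.22 ± 0.076 with P. umbellatus. TNFAIP3, which encodes the deubiquitinase A20, rose in Huh7 cells by 1.99 ± 0.15, 0.97 ± 0.15 and 0.95 ± 0.15 and in A549 cells by 1.70 ± 0.30 with P. chinensis. IKBKB, a kinase of the NF-kB pathway, rose in A549 cells by 1.03 ± 0.32 with B. chinense and 1.35 ± 0.31 with P. umbellatus, and TRAF1, an adaptor, by 1.03 ± 0.20 with B. chinense. OTULIN, a deubiquitinase, fell by 0.25 with P. chinensis and 0.29 with B. chinense, TRAF5 by 0.66 with P. chinensis and MAP3K5 by 0.46 with P. umbellatus in A549 cells. In Huh7 cells RBCK1, a subunit of the linear ubiquitin ligase, fell by 0.41 with P. chinensis and 0.74 with P. umbellatus, and TAB1 by 0.56 with P. umbellatus. The complex had medians of 0.086, 0.089 and 0.094 in A549 cells and -0.00076, 0.037 and 0.21 in Huh7 cells. Without replicate 2 of P. umbellatus in Huh7 cells the last median was 0.082. BIRC3, TNFAIP3 and TRAF1 are also on the list of NF-kB targets. Of that list 12 rose and 1 fell of 15 in A549 cells with P. chinensis, 8 rose with B. chinense, and 9 rose and 1 fell with P. umbellatus, and in Huh7 cells 9, 2 and 6 of 14 rose and 0, 0 and 1 fell. NF-kB targets had medians of 1.10, 0.69 and 0.89 in A549 cells and 0.78, 0.069 and 0.17 in Huh7 cells. NFKB2 rose in A549 cells by 1.08 ± 0.078 with B. chinense and 1.27 ± 0.077 with P. umbellatus, while BCL3 fell by 0.41 with P. chinensis and 0.47 with P. umbellatus. In Huh7 cells CXCL8 rose by 0.99 ± 0.16 and RELB fell by 0.60 with P. umbellatus.

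All 25 genes on the list of p53 targets, which holds none of the 10 members, rose in A549 cells with each extract, beside 15.8%, 13.1% and 13.4% of all genes. The list was chosen with earlier results of these data known. Its medians were 1.31, 1.18 and 1.05 in A549 cells and 0.12, 0.070 and 0.045 in Huh7 cells. TNFRSF10C stands on this list and on that of other death receptors. CDKN1A, the cell cycle inhibitor p21, rose by 2.54 ± 0.079, 2.41 ± 0.079 and 2.20 ± 0.079, and TP53INP1 by 2.69 ± 0.10, 2.48 ± 0.10 and 2.18 ± 0.10. In Huh7 cells 8 rose and 1 fell of 24 with P. chinensis, none changed with B. chinense, and 4 rose and 2 fell with P. umbellatus. GDF15 rose by 1.44 ± 0.19 and GADD45A by 1.42 ± 0.19 with P. chinensis there, while MDM2, the ubiquitin ligase of p53, fell by 0.38. With P. umbellatus GADD45A rose by 0.68 ± 0.19 and ZMAT3 by 0.53 ± 0.094, and SESN2 fell by 0.52 and AEN by 0.37. The change was higher in A549 than in Huh7 cells for 20, 19 and 20 of 24 p53 targets with the 3 extracts in the interaction test, and lower for none. Over all genes it was higher for 10.3%, 5.80% and 19.1%.

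ATF4 and CHOP targets, a stress response that can also act on TNFRSF10B, went both ways. Of 15 tested in A549 cells, P. chinensis gave 5 rises and 5 falls, B. chinense 3 rises and 6 falls, and P. umbellatus 3 rises and 5 falls. ATF3 rose by 3.003 ± 0.36, 1.89 ± 0.37 and 1.67 ± 0.37 and SESN2, which also stands among the p53 targets, by 1.69 ± 0.14, 1.39 ± 0.14 and 1.15 ± 0.14. PHGDH, a serine synthesis enzyme, fell by 0.47, 0.59 and 0.44, ATF4 by 0.52 with B. chinense and 0.38 with P. umbellatus, and CEBPB by 0.37 with P. chinensis. In Huh7 cells 4 rose and 7 fell with P. chinensis, 4 fell with B. chinense, and 2 rose and 8 fell with P. umbellatus. ATF3 rose there by 1.82 ± 0.15 with P. chinensis and 0.64 ± 0.15 with P. umbellatus, PPP1R15A by 1.71 ± 0.19 with P. chinensis and DDIT3, the gene of CHOP, by 0.37 ± 0.14 with P. umbellatus. ASNS, asparagine synthetase, fell by 1.08 with P. chinensis and 0.85 with B. chinense, PSAT1 by 1.12 with P. chinensis, SLC7A11 by 0.67 with B. chinense, and CHAC1 by 1.40 and PHGDH by 1.06 with P. umbellatus. Across the list the medians were -0.17, -0.20 and 0.0083 in A549 cells and -0.29, -0.52 and -0.31 in Huh7 cells.

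Interferon response genes, which include regulators of TNFSF10, rose in 3, 4 and 4 of 16 and fell in 2 of 16 with each extract in A549 cells. IRF1, a transcription factor, rose by 1.15 ± 0.13, 0.94 ± 0.14 and 0.82 ± 0.13, while OAS1 fell by 1.04, 1.18 and 1.30 and OAS3 by 0.73, 0.79 and 0.59. In Huh7 cells 6, 0 and 2 of 16 rose and none fell. With P. chinensis IRF1 rose by 1.24 ± 0.21 and ISG15 by 1.02 ± 0.22, and with P. umbellatus OAS1 by 0.48 ± 0.17 and XAF1 by 0.48 ± 0.12. Interferon medians were 0.19, 0.15 and 0.35 in A549 cells and 0.59, 0.17 and 0.17 in Huh7 cells.

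The Huh7 counts of these lists were also taken without the P. umbellatus library that stands apart. Without it, p53 targets rose and fell in 11 and 2, 2 and 0, and 4 and 2 of 24, and ATF4 and CHOP targets in 4 and 7, 3 and 6, and 3 and 8 of 15 with the 3 extracts in the order used above. NF-kB targets did so in 11 and 0, 2 and 0, and 5 and 0 of 14, TNF receptor complex genes in 7 and 5, 2 and 1, and 6 and 3 of 24 and interferon response genes in 7 and 0, 0 and 0, and 3 and 0 of 16. Other death receptors did so in 3 and 0, 0 and 1, and 1 and 1 of 8, caspases and adaptors in 4 and 1, 1 and 0, and 2 and 2 of 15 and necroptosis genes in 1 and 0, 0 and 0, and 0 and 0 of 3. With P. umbellatus RELB, at -0.47 ± 0.21, then did not pass, and the interaction with P. umbellatus was higher for 20 of 24 p53 targets.

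**Figure D4:**
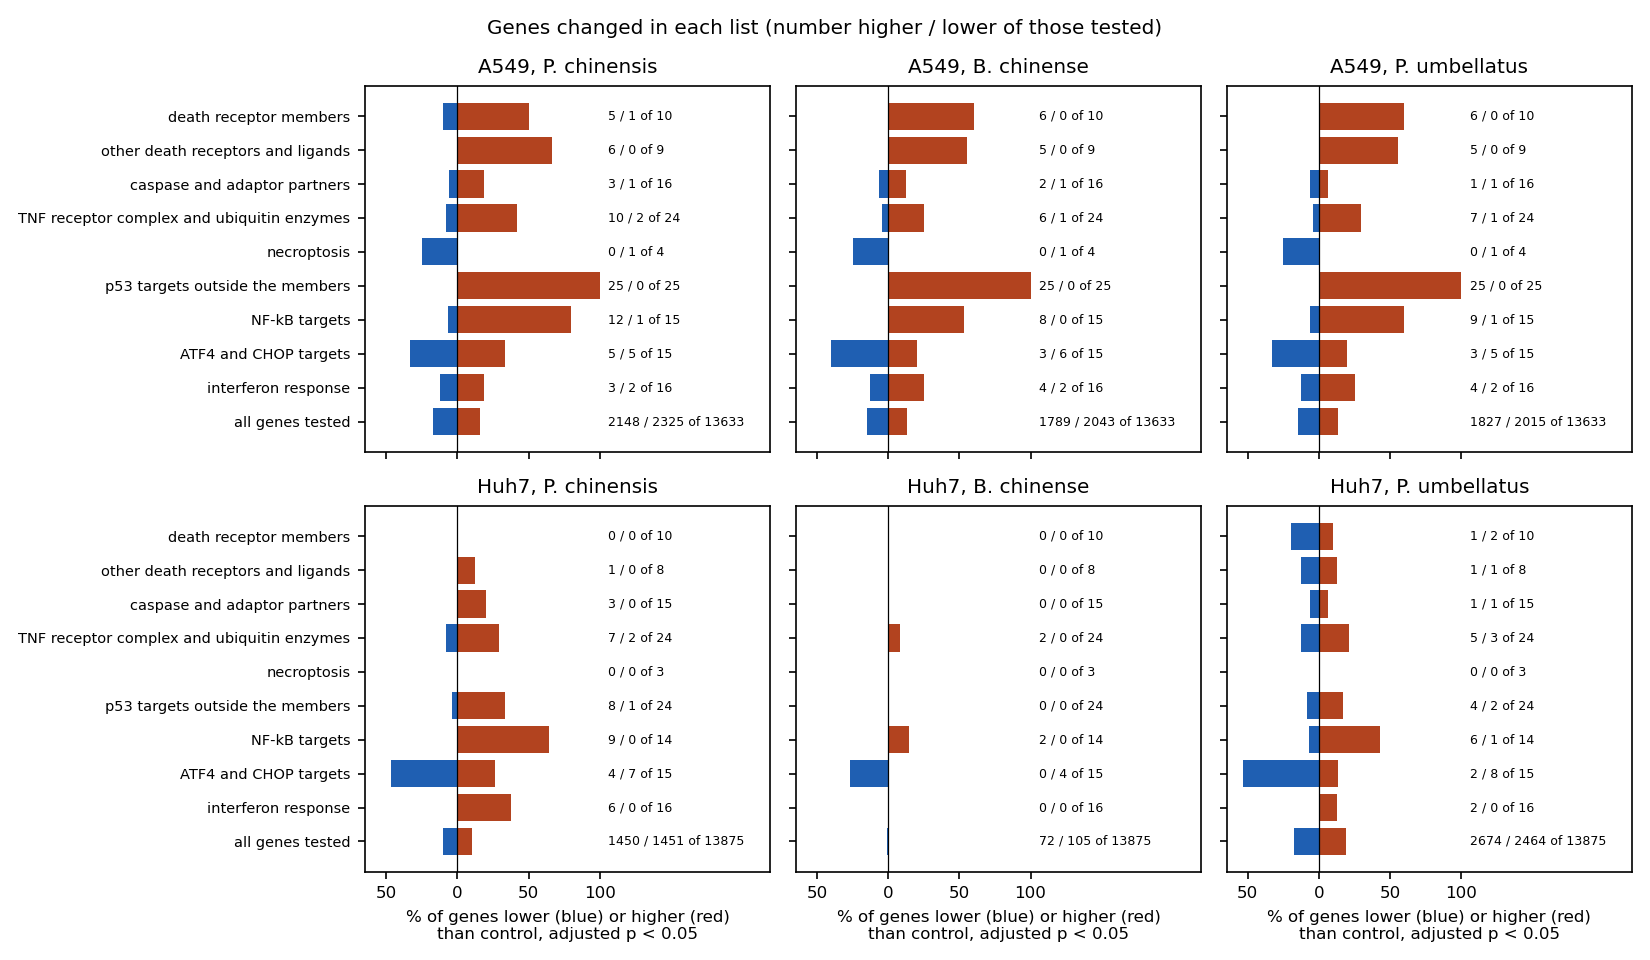
Share of genes in each list that were higher (red, to the right) or lower (blue, to the left) than control with an adjusted p below 0.05, in percent (horizontal axis), for each line and extract, with the numbers beside the bars and all genes tested at the bottom. The bar of p53 targets reaches 25 of 25 in A549 cells with each extract, and 8, 0 and 4 of 24 in Huh7 cells. The lists were chosen with earlier results of these data known.

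Over the 12 A549 libraries, the genes whose log2 CPM followed FAS most closely among 10865 genes were KYNU (Pearson r = 0.959), MOB1B (0.957) and GOLGA7B (0.953). For TNFRSF10B they included SERPINE2 (0.993) and ACTA2 (0.990). ACTA2 is the neighbour of FAS on chromosome 10 and shares 1.99% of the FAS stretches of 31 bases. Over the 12 Huh7 libraries, the closest of 11255 genes were RPL6 (0.849), RPS29 (0.836) and MPC2 (0.829) for FAS, and UCKL1 (0.979), TEX264 (0.976) and SH3BP5L (0.975) for TNFRSF10B. These correlations are descriptions over libraries that fall into 4 groups and differ in depth.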

How the data were processed

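Stranded total RNA libraries depleted of ribosomal RNA were sequenced. The deposited counts are estimates that the authors obtained by kallisto on Ensembl transcripts of GRCh38.p13, limited to protein-coding genes above a mean of 5. How transcripts were summed per gene and rounded, and whether strand was used, is not given in the sources used here. Here, the 12 libraries of a line were scaled by TMM and fitted in 1 model with a term for each group (prior count 2), over genes averaging more than 5 counts in that line (13633 in A549, 13875 in Huh7), by the quasi-likelihood test of edgeR 4.0.16 in R 4.3.3, two-sided, with Benjamini-Hochberg adjustment over all genes tested. Interactions and the comparison of controls used all 24 libraries and 12924 genes. Intervals are at 95%.

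The 10 members are reported in every comparison. Of the 12 other lists, written from general knowledge, the counts are given, and up to 2 genes in each direction are named, those past the test that moved most and averaged 50 counts or more. The genes most like FAS and TNFRSF10B are the 3 with the highest Pearson correlation at the same minimum. A few genes that these rules name are not reported here. Members and lists were chosen with earlier results of these data known. Of the marker lists, lung epithelial markers rose and fell in 2 and 4, 2 and 3, and 2 and 5 of 10 genes in A549 cells and 2 and 0, 0 and 0, and 1 and 0 of 8 in Huh7 cells, with the extracts of P. chinensis, of B. chinense and of P. umbellatus in turn. Hepatocyte genes rose and fell in 0 and 4 of 7 with each extract in A549 cells and in 2 and 5, 2 and 1, and 2 and 7 of 12 in Huh7 cells. Blood and stromal markers rose and fell in none of 4 in A549 cells and in 1 and 1, 0 and 1, and 1 and 2 of 7 in Huh7 cells. Mitochondrially encoded genes rose in 1 of 13 with each extract in A549 cells and in 1, 0 and 6 in Huh7 cells, where 1 fell with P. umbellatus. Gene positions are those of GENCODE v44, and sequences were read from the GRCh38 genome. The fits were tested on simulated data.

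The alternatives were RLE and upper quartile scaling, DESeq2 1.42.0, voom with sample quality weights of limma 3.58.1, other filters, a minimum fold of 1.5, a replicate block, a fit of only the libraries compared, and leaving out each library. Replicate numbers did not pair the groups.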

Additional observations from a re-analysis of the deposited data

Results flagged for a closer look

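The change with an extract differed between the lines in the edgeR interaction test for 16 pairs of gene and extract, each with 3 libraries per group. In each, the log2 fold change was higher in A549 than in Huh7 cells. With P. chinensis it was higher for FAS by 1.35 (adjusted p = 0.000116), TNFRSF10A by 0.83 (adjusted p = 0.00137), TNFRSF10B by 1.19 (adjusted p = 4.08e-08), TNFRSF10D by 0.95 (adjusted p = 5.58e-07) and CFLAR by 0.66 (adjusted p = 8.35e-06). With B. chinense it was higher for FAS by 1.03 (adjusted p = 0.00355), TNFRSF10A by 0.78 (adjusted p = 0.00511), TNFRSF10B by 1.05 (adjusted p = 7.61e-07), TNFRSF10D by 0.73 (adjusted p = 3.91e-05) and CFLAR by 0.36 (adjusted p = 0.00804). With P. umbellatus it was higher for FAS by 1.27 (adjusted p = 0.000247), TNFRSF10A by 0.66 (adjusted p = 0.00671), TNFRSF10B by 1.36 (adjusted p = 1.98e-08), TNFRSF10D by 0.63 (adjusted p = 8.94e-05), CFLAR by 0.27 (adjusted p = 0.021) and TRADD by 1.43 (adjusted p = 0.00208). The CFLAR call with P. umbellatus was lost in 10 of 24 fits that left out 1 library.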

How the results depend on the processing

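The 18 calls in A549 cells against control and the 5 interactions each with P. chinensis and B. chinense remained past the threshold when any library was left out, and under every alternative except the minimum fold. The calls in Huh7 cells and between extracts did not, and their causes were not tested. The number of members called changed as follows. With a minimum fold of 1.5 it was 5 (P. chinensis against control in A549), 2 (B. chinense against control in A549), 2 (P. umbellatus against control in A549), 1 (P. umbellatus against control in Huh7), 4 (the B. chinense interaction), 5 (the P. umbellatus interaction), 0 (P. chinensis against B. chinense in A549), 0 (P. chinensis against P. umbellatus in A549), 0 (P. chinensis against P. umbellatus in Huh7), 0 (B. chinense against P. umbellatus in Huh7), 4 (A549 against Huh7 controls). With limma voom it was 1 (P. chinensis against control in Huh7), 1 (P. umbellatus against control in Huh7), 6 (the B. chinense interaction), 5 (the P. umbellatus interaction), 1 (P. chinensis against P. umbellatus in Huh7). In a fit of only the libraries compared it was 1 (P. chinensis against control in Huh7), 0 (P. umbellatus against control in Huh7), 6 (the B. chinense interaction), 5 (the P. umbellatus interaction), 0 (P. chinensis against B. chinense in A549), 0 (P. chinensis against P. umbellatus in A549), 0 (P. chinensis against P. umbellatus in Huh7), 0 (B. chinense against P. umbellatus in Huh7). With upper quartile scaling it was 2 (P. umbellatus against control in Huh7), 8 (A549 against Huh7 controls). With DESeq2 it was 6 (the B. chinense interaction), 3 (P. chinensis against B. chinense in A549), 3 (P. chinensis against P. umbellatus in A549), 3 (P. chinensis against P. umbellatus in Huh7). The count was the same but the genes were not with upper quartile scaling for P. chinensis against P. umbellatus, where CFLAR replaced TNFRSF1A in A549 and TRADD replaced CFLAR in Huh7 cells, and with limma voom for B. chinense against P. umbellatus in Huh7 cells, where CFLAR replaced TNFRSF10B. When 1 library was left out the number ranged over 0 to 1 (P. chinensis against control in Huh7), 0 to 4 (P. umbellatus against control in Huh7), 5 to 6 (the B. chinense interaction), 5 to 6 (the P. umbellatus interaction), 0 to 1 (P. chinensis against B. chinense in A549), 0 to 3 (P. chinensis against P. umbellatus in A549), 0 to 3 (P. chinensis against P. umbellatus in Huh7), 0 to 3 (B. chinense against P. umbellatus in Huh7), 5 to 7 (A549 against Huh7 controls). Replicate numbers did not pair the groups: the same-number correlations of deviations ran from -0.062 to 0.052 over 18 pairs in A549 cells and -0.032 to 0.036 in Huh7 cells, and none was above 0.1. With the replicate number as a block, 0 members differed between P. chinensis and P. umbellatus in A549 cells in place of 2, TRADD passed between them in Huh7 cells, FADD no longer passed between the controls, no other call changed, and the values that changed sign were 0.17 for TNFSF10 (the B. chinense interaction) and 0.055 for TNFSF10 (P. chinensis against B. chinense in Huh7).

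The number of all genes called moved by over 1.5 times as follows. With a minimum fold of 1.5 it was 1788 in place of 4473 (P. chinensis against control in A549), 1419 in place of 3832 (B. chinense against control in A549), 1380 in place of 3842 (P. umbellatus against control in A549), 43 in place of 198 (P. chinensis against B. chinense in A549), 73 in place of 410 (P. chinensis against P. umbellatus in A549), 4 in place of 7 (B. chinense against P. umbellatus in A549), 1358 in place of 2901 (P. chinensis against control in Huh7), 98 in place of 177 (B. chinense against control in Huh7), 2148 in place of 5138 (P. umbellatus against control in Huh7), 455 in place of 1083 (P. chinensis against B. chinense in Huh7), 2115 in place of 4907 (P. chinensis against P. umbellatus in Huh7), 1318 in place of 3781 (B. chinense against P. umbellatus in Huh7), 1603 in place of 2529 (the P. chinensis interaction), 935 in place of 1499 (the B. chinense interaction), 2772 in place of 4447 (the P. umbellatus interaction). With DESeq2 it was 458 in place of 198 (P. chinensis against B. chinense in A549), 650 in place of 410 (P. chinensis against P. umbellatus in A549), 73 in place of 7 (B. chinense against P. umbellatus in A549), 519 in place of 177 (B. chinense against control in Huh7), 1755 in place of 1083 (P. chinensis against B. chinense in Huh7). With the replicate block it was 122 in place of 198 (P. chinensis against B. chinense in A549), 258 in place of 410 (P. chinensis against P. umbellatus in A549), 116 in place of 177 (B. chinense against control in Huh7). In a fit of only the libraries compared it was 33 in place of 198 (P. chinensis against B. chinense in A549), 230 in place of 410 (P. chinensis against P. umbellatus in A549), 5861 in place of 2901 (P. chinensis against control in Huh7), 1122 in place of 177 (B. chinense against control in Huh7), 1228 in place of 5138 (P. umbellatus against control in Huh7), 3203 in place of 1083 (P. chinensis against B. chinense in Huh7), 2058 in place of 4907 (P. chinensis against P. umbellatus in Huh7), 2 in place of 3781 (B. chinense against P. umbellatus in Huh7), 3881 in place of 2529 (the P. chinensis interaction), 2355 in place of 1499 (the B. chinense interaction). With limma voom it was 6325 in place of 2901 (P. chinensis against control in Huh7), 1229 in place of 177 (B. chinense against control in Huh7), 3344 in place of 1083 (P. chinensis against B. chinense in Huh7), 4017 in place of 2529 (the P. chinensis interaction), 2483 in place of 1499 (the B. chinense interaction). When 1 library was left out it ran from 37 (A549 P. chinensis 3) to 192 (A549 P. umbellatus 1) for P. chinensis against B. chinense in A549, 129 (A549 P. chinensis 3) to 420 (A549 control 1) for P. chinensis against P. umbellatus in A549, 4 (A549 P. umbellatus 2) to 9 (A549 control 1) for B. chinense against P. umbellatus in A549, 1129 (Huh7 control 3) to 2417 (Huh7 P. umbellatus 2) for the B. chinense interaction, 446 (Huh7 P. chinensis 3) to 2838 (Huh7 P. umbellatus 2) for P. chinensis against B. chinense in Huh7, 1839 (Huh7 control 3) to 4845 (Huh7 P. umbellatus 2) for P. chinensis against control in Huh7, 1436 (Huh7 B. chinense 3) to 5697 (Huh7 P. umbellatus 3) for B. chinense against P. umbellatus in Huh7, 51 (Huh7 control 3) to 911 (Huh7 P. umbellatus 2) for B. chinense against control in Huh7, 3249 (Huh7 control 2) to 6362 (Huh7 P. umbellatus 3) for P. umbellatus against control in Huh7, with the line, group and replicate left out in parentheses.

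Values that changed sign belonged to genes that did not pass the test. With upper quartile scaling they were 0.039 for FADD (P. chinensis against control in A549), 0.018 for FADD (B. chinense against control in A549), 0.0027 for FAS (P. chinensis against control in Huh7), 0.047 for CFLAR (P. chinensis against control in Huh7), 0.0082 for TRADD (P. chinensis against control in Huh7), 0.0074 for TNFRSF10B (B. chinense against P. umbellatus in A549), 0.015 for TNFRSF10B (P. chinensis against B. chinense in Huh7), 0.021 for TNFRSF10A (P. chinensis against P. umbellatus in Huh7), 0.0099 for TNFRSF10D (P. chinensis against P. umbellatus in Huh7). With limma voom they were 0.029 for TNFSF10 (B. chinense against control in A549), 0.0097 for CFLAR (P. chinensis against control in Huh7), 0.65 for TNFSF10 (the B. chinense interaction), 0.00053 for TNFRSF10B (B. chinense against P. umbellatus in A549), -0.0063 for TRADD (B. chinense against P. umbellatus in A549), 0.39 for TNFSF10 (P. chinensis against B. chinense in Huh7), -0.0061 for FADD (P. chinensis against B. chinense in Huh7), -0.063 for TNFRSF1A (P. chinensis against P. umbellatus in Huh7), -0.17 for RIPK1 (P. chinensis against P. umbellatus in Huh7). Without a filter on low counts they were 0.014 for TNFRSF1A (the P. chinensis interaction). With the filterByExpr filter they were 0.013 for TNFRSF1A (the P. chinensis interaction), -0.0042 for FADD (P. chinensis against B. chinense in A549). With DESeq2 they were -0.00026 for FADD (P. chinensis against B. chinense in A549), -0.0051 for FADD (P. chinensis against B. chinense in Huh7). With RLE scaling they were -0.0043 for FADD (P. chinensis against B. chinense in Huh7). The ranges of such log2 fold changes when 1 library was left out follow. For P. chinensis against control in A549 -0.50 to 0.011 (TNFSF10), -0.048 to 0.0076 (FADD). For B. chinense against control in A549 -0.39 to 0.13 (TNFSF10), -0.059 to 6.8e-05 (FADD). For P. umbellatus against control in A549 -0.44 to 0.10 (TNFSF10), -0.22 to 0.87 (RIPK1), -0.0074 to 0.10 (FADD). For P. chinensis against control in Huh7 -0.12 to 0.035 (FAS), -0.0042 to 0.055 (TNFRSF10B), -0.073 to 0.037 (CFLAR), -0.18 to 0.068 (TRADD). For B. chinense against control in Huh7 -0.0039 to 0.071 (TNFRSF10B), -1.16 to 0.35 (TNFSF10), -0.014 to 0.070 (CFLAR), -0.24 to 0.11 (RIPK1). For P. umbellatus against control in Huh7 -0.28 to 0.051 (TNFRSF10A). For the P. chinensis interaction -0.10 to 0.015 (TNFRSF1A), -0.31 to 0.23 (TNFSF10), -1.36 to 0.20 (RIPK1). For the B. chinense interaction -0.45 to 1.01 (TNFSF10). For P. chinensis against B. chinense in A549 -0.36 to 0.061 (TNFSF10), -0.014 to 0.034 (FADD). For P. chinensis against P. umbellatus in A549 -0.33 to 0.19 (TNFSF10). For B. chinense against P. umbellatus in A549 -0.19 to 0.075 (FAS), -0.087 to 0.0073 (TNFRSF10A), -0.057 to 0.054 (TNFRSF10B), -0.023 to 0.041 (TNFRSF10D), -0.19 to 0.31 (TNFSF10), -0.059 to 0.073 (TRADD). For P. chinensis against B. chinense in Huh7 -0.067 to 0.0074 (TNFRSF10B), -0.54 to 0.97 (TNFSF10), -0.032 to 0.029 (FADD). For P. chinensis against P. umbellatus in Huh7 -0.21 to 0.12 (TNFRSF10A), -0.11 to 0.18 (TNFRSF1A), -0.28 to 1.76 (RIPK1), -0.048 to 0.21 (FADD). For B. chinense against P. umbellatus in Huh7 -0.034 to 0.26 (TNFRSF1A), -1.40 to 0.11 (TNFSF10), -0.034 to 2.01 (RIPK1), -0.056 to 0.20 (FADD). For A549 against Huh7 controls -0.79 to 0.30 (RIPK1). The low counts of TNFSF10 (3 to 36) and the scatter of RIPK1 (0 to 225 counts) limit what can be seen of ligand and kinase. The cause of the RIPK1 scatter was not tested.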
